A study of Mus musculus with 9 samples.

Results

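The extracellular matrix of a tissue holds, beside its collagens, a set of adhesive glycoproteins, proteoglycans, elastic fibre proteins and the enzymes that crosslink them. The 39 genes described here encode such proteins. They were taken as a fixed list of mouse symbols, and each was matched to an Ensembl identifier in the deposited tables, so that the genes form 39 of 56398 measured features. By role they comprised 12 adhesive and matricellular glycoproteins, 5 small leucine-rich proteoglycans, 2 large proteoglycans, 2 basement membrane linkers, 11 elastic fibre and microfibril proteins, 5 crosslinkers of the lysyl oxidase family and 2 proteins of collagen processing and assembly.

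Bulk RNA was sequenced from 3 groups of 3 mouse samples of the BALB/c strain. The sham group was healthy colon. Both tumour groups came from mice injected with CT26, a colon carcinoma line derived from BALB/c mice, so that each tumour holds line-derived cells of 1 origin together with cells of the host. The model group received saline at 6 g/kg once a day, and the AC group received Astragalus and Curcuma phaeocaulis Valeton at a ratio of 2 to 1, also at 6 g/kg once a day. Age and sex of the mice, the site of injection and the length of treatment were not stated in the labels. Whether each sample stands for its own mouse is likewise not stated, so a p-value here measures the spread between 3 samples, and part or all of that spread may be technical.

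As background, fibronectin, the thrombospondins, tenascins, periostin, osteopontin and SPARC are secreted proteins that connect cells to the matrix or change that contact, mostly through integrins. Small leucine-rich proteoglycans bind collagen fibrils and regulate their width, versican and perlecan are large proteoglycans of the interstitial matrix and of basement membranes, and nidogens link laminin to type IV collagen. Elastin is laid onto fibrillin microfibrils with the help of fibulins and is then crosslinked by lysyl oxidases, which also crosslink collagen. In colon and in tumours fibroblasts are a main source of many of these proteins, and macrophages and carcinoma cells can make some of them too.

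Promoter sequences of 5 of the genes are shown because these genes carry the contrasts below: Spp1 had the largest rise in tumours, Postn fell, Ecm1 and Tnxb hold the AP-1 motif, and Fbln5 separated the 2 tumour groups without passing the test. Each is the 250 bases before a RefSeq transcription start on GRCm38.p6, written 5′ to 3′ on the strand of the gene, with matches to the searched words in capitals. The words were TATAAA, known as the TATA box, and TGACTCA, known as the AP-1 motif, searched on both strands, and the matches shown do not overlap each other. The Spp1 window is chr5:104434861-104435110 on the plus strand, that of Postn chr3:54360857-54361106 on the plus strand, that of Ecm1 chr3:95739570-95739819 on the minus strand, that of Tnxb chr17:34670285-34670534 on the plus strand and that of Fbln5 chr12:101819120-101819369 on the minus strand.
Spp1: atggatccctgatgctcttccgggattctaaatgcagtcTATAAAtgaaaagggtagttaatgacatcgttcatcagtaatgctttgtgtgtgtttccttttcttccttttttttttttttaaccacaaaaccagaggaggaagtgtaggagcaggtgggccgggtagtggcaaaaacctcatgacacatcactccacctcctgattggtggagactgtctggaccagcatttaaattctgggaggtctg
Postn: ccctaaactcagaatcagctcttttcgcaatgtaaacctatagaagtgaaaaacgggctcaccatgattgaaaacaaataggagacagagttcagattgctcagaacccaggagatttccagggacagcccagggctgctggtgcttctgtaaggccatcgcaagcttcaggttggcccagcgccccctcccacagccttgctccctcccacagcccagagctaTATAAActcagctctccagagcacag
Ecm1: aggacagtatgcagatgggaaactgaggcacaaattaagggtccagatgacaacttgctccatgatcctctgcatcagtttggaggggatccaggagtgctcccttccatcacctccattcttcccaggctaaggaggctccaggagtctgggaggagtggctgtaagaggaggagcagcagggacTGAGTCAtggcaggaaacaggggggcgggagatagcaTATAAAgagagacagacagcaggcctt
Tnxb: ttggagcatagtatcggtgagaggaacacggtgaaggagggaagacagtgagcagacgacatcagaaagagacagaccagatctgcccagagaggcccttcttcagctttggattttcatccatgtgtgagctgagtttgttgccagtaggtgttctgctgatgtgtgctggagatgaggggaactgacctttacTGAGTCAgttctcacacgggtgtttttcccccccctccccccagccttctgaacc
Fbln5: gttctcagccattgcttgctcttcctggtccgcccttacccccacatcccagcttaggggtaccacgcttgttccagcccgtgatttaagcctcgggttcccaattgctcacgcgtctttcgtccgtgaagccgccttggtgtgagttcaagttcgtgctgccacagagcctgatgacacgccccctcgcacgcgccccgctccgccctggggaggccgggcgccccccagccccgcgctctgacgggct

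Of the 39 genes, 26 matched the RefSeq table, with 34 promoters that run from 250 bases before to 50 bases after a start. Not matched were Mfap5, Lum, Loxl3, Loxl1, Lox, Dcn, Fbn2, Nid2, Loxl2, Sparcl1, Fn1, Thbs1 and Eln. TATAAA occurred in 8 of the 34 promoters (23.5%) and in 13.6% of all 32851 promoters in the table. Its first base lay 26 bases before the start in Postn and 27 bases before it in Ecm1, whereas in Spp1 it lay 211 bases before the start. Overlapping windows of Tnc hold the same TATAAA, 126 and 205 bases before their starts, so that site was counted in both. TGACTCA occurred in 2 of the 34 promoters (5.88%), against 5.2% of all promoters, on the minus strand 64 bases before the start in Ecm1 and 55 bases before it in Tnxb. Postn fell and Ecm1 rose in tumours, so genes with a TATAAA word close to the start lay on both sides of the comparison.

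Total counts per library ran from 15690038 to 23476056, and no 2 libraries of a group agreed within sampling noise. The sham library 1 stood apart: its counts differed from those of sham 2 and 3 with chi-square values of 100.5 and 119 per degree of freedom, against 3.06 between sham 2 and 3. Its summed smooth muscle markers were 91.9 CPM (counts scaled to library size, with TMM factors over all 9 libraries) against 1194 and 1308 CPM, and its B cell markers 747 CPM against 94.1 and 47.7 CPM. Enough counts to place sham 1 were present for 35 of the 39 genes. It lay more than 1.5-fold above both other sham libraries for Bgn, Dcn, Eln, Lox and Nid2 (14.3%, against 19.6% of all genes). Of these, Lox and Nid2 rest on few reads, with 14 counts each in sham 1. For 12 genes sham 1 lay more than 1.5-fold below both (34.3%, against 25.6% of all genes). The 7 epithelial markers summed to 24039 to 37862 CPM in sham colon, to 478, 226 and 189 CPM in model tumours 1 to 3 and to 288, 268 and 922 CPM in AC tumours 1 to 3. In tumours Epcam was at 0.259 to 0.95 CPM in 4 tumours, at 35.6 CPM in model 1 and at 67.6 CPM in AC 3. Epithelial marker sums were thus low in all 6 tumours beside sham colon, with no epithelial marker at 0 in every library of a group. Fewer cells of a type and less RNA per cell cannot be told apart in these bulk samples.

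Against sham colon, model tumours carried far more RNA of most of these matrix genes. Of the 36 tested, 25 rose, 5 fell and 6 were not called by edgeR's quasi-likelihood test at an adjusted p of 0.05, and Vtn, Mfap2 and Fmod had too few reads to test. The background was high: 69.7% of 18228 genes tested were called, 36.8% higher and 32.9% lower. The median log2 fold change of the 36 was 3.42, beside 0.12 over all genes tested. The 3 tumours lay wholly above or below the 3 sham libraries for 31 of the 36 genes (86.1%), against 76.9% of all genes. Without TMM scaling the median over all genes shifted by 0.61 and 67.3% of all calls were higher in place of 52.8%, and the 36 genes then had a median of 4.03. Without sham 1, 26 were called higher and 5 lower.

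**Figure D1:**
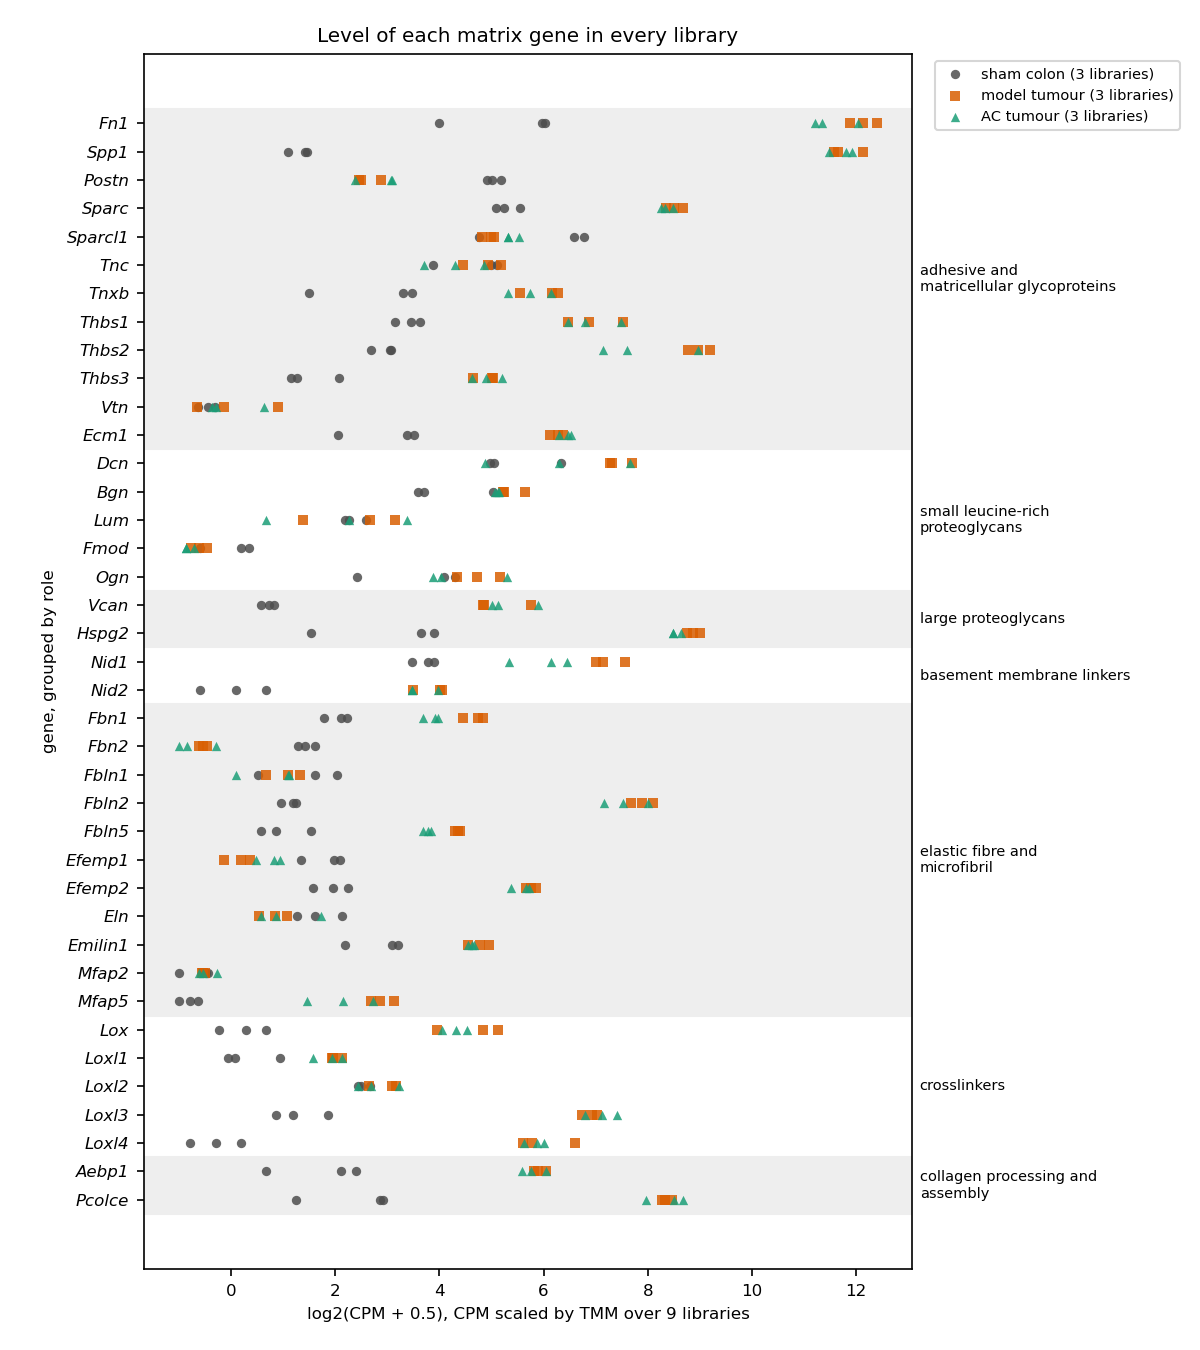
Level of each of the 39 matrix genes in every library, as log2(CPM + 0.5) with CPM scaled by TMM over 9 libraries, 3 points per group, grouped by role. Spp1 lay at 1.63 to 2.27 CPM in sham colon and at 2851 to 4476 CPM in the 6 tumours, whereas Postn lay higher in sham colon than in every tumour.

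The adhesive and matricellular glycoproteins held both the largest rise and a clear fall. Of the 11 tested, 8 rose (72.7%, against 36.8% of all genes). Postn and Sparcl1 fell (18.2%, against 32.9% of all genes), and Tnc was not called. Spp1 (osteopontin, an integrin and CD44 ligand, chr5:104435118-104441050) was at 1.63, 2.16 and 2.27 CPM in sham libraries 1 to 3 and at 4476, 3216 and 3048 CPM in model tumours 1 to 3. Every tumour lay far above every sham library, with a log2 fold change of 10.81 (SE 0.34, adjusted p 1.44e-05, edgeR). Fn1 (fibronectin, chr1:71585520-71653200) was at 15.3, 64.7 and 62.5 CPM in sham colon and at 5419, 4467 and 3792 CPM in model tumours, with sham 1 the lowest of all. Its log2 fold change was 6.63 (SE 0.64, adjusted p 0.000193, edgeR). Spp1 shares 309 exonic bases with Gm42793 on the same strand, and reads there may have been counted for either or neither gene.

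The 3 thrombospondins of the set, matrix glycoproteins that bind cells and other matrix proteins, rose but to different degrees. Thbs2 was at 5.91, 7.77 and 7.86 CPM in sham colon and at 585, 435 and 502 CPM in model tumours, a log2 fold change of 6.17 (SE 0.23). Thbs1 was at 8.4, 10.4 and 11.9 CPM in sham colon and at 116, 184 and 87.7 CPM in model tumours, a log2 fold change of 3.68 (SE 0.32), and Thbs3 rose by 3.62 (SE 0.33). All 3 passed the test, and in none did a tumour overlap a sham library. Thbs3 shares 318 exonic bases with Mtx1 on the opposite strand, so its value is uncertain, as the strand setting of the counting is not given.

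Among the matricellular pairs of related proteins, members of a pair differed in their change. Sparc (a collagen-binding protein) was at 46.4, 33.4 and 37.5 CPM in sham colon and at 411, 362 and 325 CPM in model tumours, a log2 fold change of 3.24 (SE 0.21). Sparcl1 (its relative hevin, chr5:104079111-104113733) was at 26.8, 95.1 and 109.6 CPM in sham colon and at 32.5, 31.2 and 27.8 CPM in model tumours. Sham 1 lay below all 3 tumours and the other sham libraries far above, and the log2 fold change of -1.30 (SE 0.47, adjusted p 0.0427, edgeR) lost its call under 8 of the alternatives, among them leaving out sham 2 (adjusted p 0.0973), sham 3 (0.105) or any model tumour (0.0848 to 0.132). Tnc (tenascin C, an anti-adhesive glycoprotein) was at 14.2, 31.5 and 34 CPM in sham colon and at 21.5, 30.1 and 35.6 CPM in model tumours, and its groups overlapped. Tnxb (tenascin X, a stabiliser of collagen) was at 2.33, 9.37 and 10.5 CPM in sham colon and at 46.4, 70.9 and 76.9 CPM in model tumours, a log2 fold change of 3.15 (SE 0.52, adjusted p 0.00182, edgeR).

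Postn (periostin, a fibroblast product that binds integrins and collagen, chr3:54361109-54391037) was at 29.5, 31.6 and 35.9 CPM in sham colon and at 5.17, 6.82 and 4.98 CPM in model tumours. The groups were well apart and sham 1 lay close to the other sham libraries, with a log2 fold change of -2.49 (SE 0.2, adjusted p 8.5e-05, edgeR). Ecm1, a secreted glycoprotein that binds perlecan, rose by 3.25 (SE 0.39). Vtn (vitronectin) was at 0.136 to 1.38 CPM in tumours and 0.142 to 0.311 CPM in sham colon and was not tested.

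Of the 4 small leucine-rich proteoglycans tested, Dcn rose and Bgn, Lum and Ogn were not called (25% called, against 69.7% of all genes). Groups were separate for 3 of the 4 (75%, against 76.9% of all genes). Dcn (decorin, which binds collagen and TGF-beta) was at 80.4, 32.7 and 31 CPM in sham colon and at 154, 159 and 206 CPM in model tumours, a log2 fold change of 1.84 (SE 0.42, adjusted p 0.00711, edgeR). Bgn (biglycan, a close relative) was at 32.2, 12.5 and 11.5 CPM in sham colon and at 49.8, 37.2 and 36.9 CPM in model tumours. Every model tumour lay above every sham library for both genes, and sham 1 was the highest sham library for each. Bgn missed the threshold with all sham libraries (log2 fold change 1.14, SE 0.45, adjusted p 0.0586, edgeR) and passed without sham 1 (1.82, adjusted p 1.82e-05) and under 5 other alternatives, DESeq2 among them. The other 2 tested, Lum (lumican) and Ogn (osteoglycin), had log2 fold changes of 0.25 (SE 0.50) and 1.02 (SE 0.48), and Ogn was called without scaling factors (adjusted p 0.0187, edgeR) and with a replicate block (adjusted p 0.0313, edgeR). Fmod (fibromodulin) had 36 counts over all libraries and was not tested.

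Both large proteoglycans rose, as did 36.8% of all genes tested. Hspg2 (perlecan, the heparan sulfate proteoglycan of basement membranes) was at 2.41, 12.1 and 14.4 CPM in sham colon and at 511, 468 and 430.0 CPM in model tumours, a log2 fold change of 5.64 (SE 0.66, adjusted p 0.000408, edgeR). Vcan (versican, which binds hyaluronan) rose by 5.01 (SE 0.36). The nidogens rose as well. Nid1 was at 10.7, 13.3 and 14.4 CPM in sham colon and at 189, 127 and 139.9 CPM in model tumours, a log2 fold change of 3.60 (SE 0.23), and Nid2 was at 1.09, 0.16 and 0.566 CPM and at 16.1, 15.7 and 10.7 CPM, a log2 fold change of 4.54 (SE 0.59). For each of these 4 genes all tumours lay above all sham libraries, and 76.9% of all genes had separate groups in either direction. Nid2 shares 437 exonic bases with Rtraf on the opposite strand and is uncertain.

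**Figure D2:**
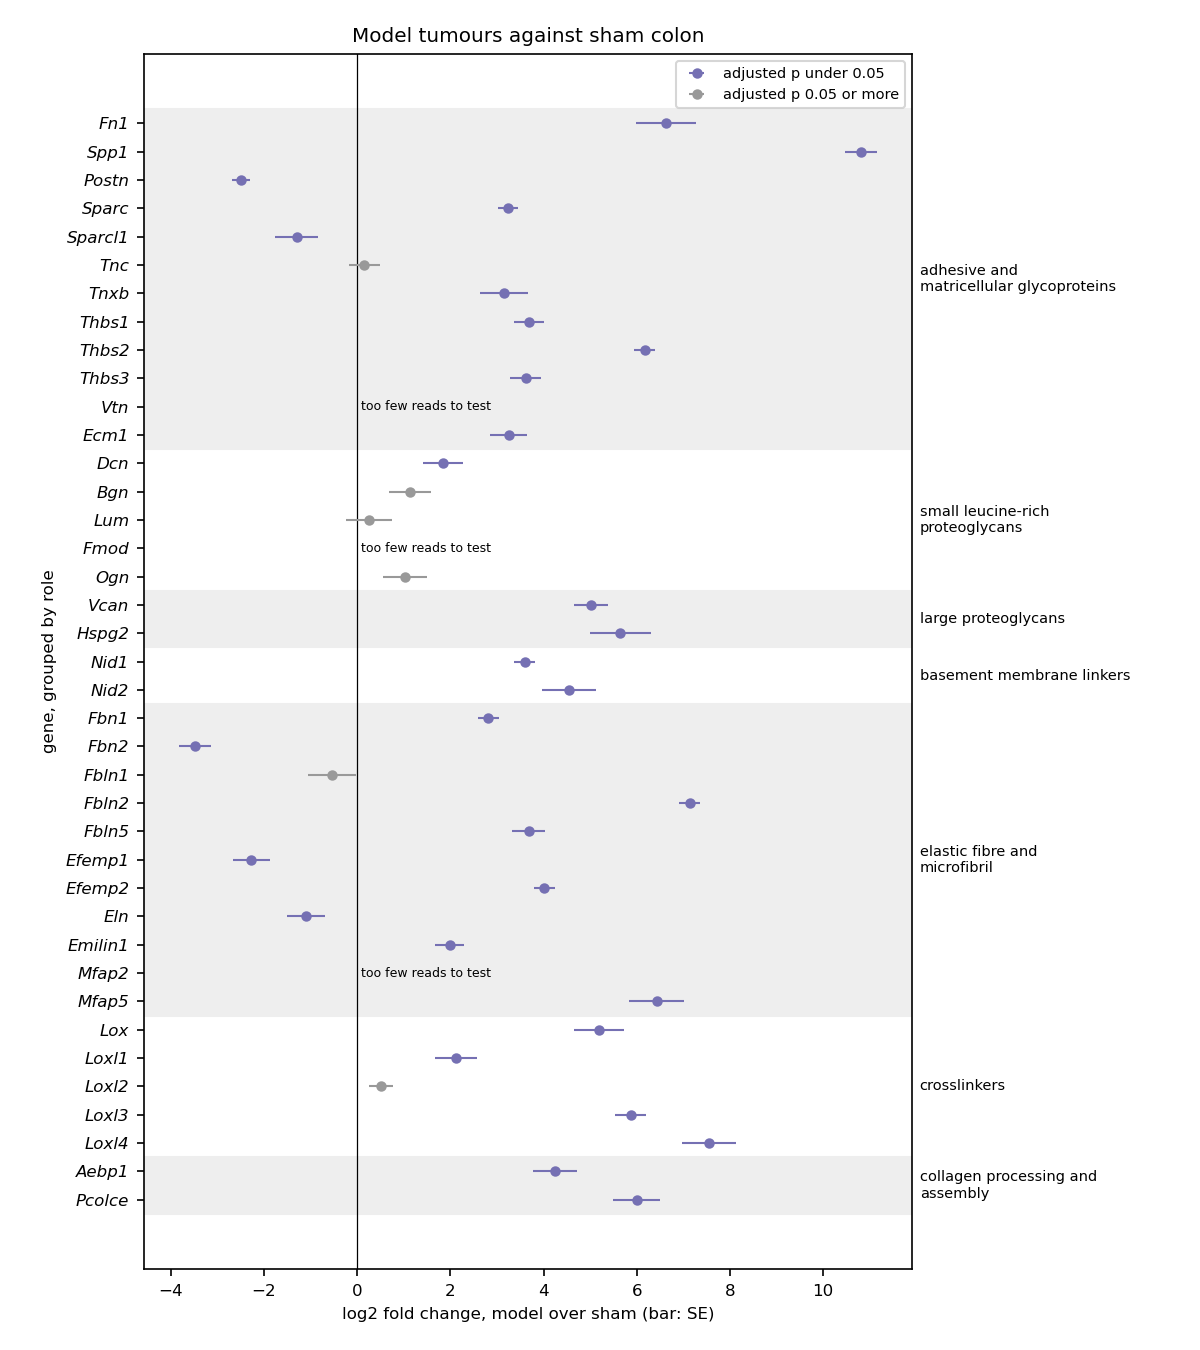
Log2 fold change of each gene in model tumours over sham colon with its SE (3 libraries against 3), in the order of the roles, coloured by whether the adjusted p was under 0.05. Most genes lie to the right of 0, from 1.84 for Dcn to 10.81 for Spp1 among those called higher. To the left lie Postn, Sparcl1, Fbn2, Efemp1 and Eln, all called lower, and Fbln1 at -0.54, not called.

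Of the 10 elastic fibre and microfibril genes tested, 6 rose (60%, against 36.8% of all genes). A further 3 fell (30%, near the 32.9% of all genes), and Fbln1 was not called. Among the fibulins, Fbln2 (fibulin 2, a ligand of fibrillin and basement membrane proteins) was at 1.87, 1.44 and 1.77 CPM in sham colon and at 236, 272 and 203 CPM in model tumours, a log2 fold change of 7.14 (SE 0.22, adjusted p 1.42e-05, edgeR). Fbln5 (fibulin 5, needed for elastic fibre assembly) was at 1.32, 2.4 and 0.991 CPM in sham colon and at 19.9, 19.3 and 20.4 CPM in model tumours, a log2 fold change of 3.68 (SE 0.35). Both lay in separate ranges in the 2 groups, whereas Fbln1 (fibulin 1) overlapped at 0.933 to 3.61 CPM in sham colon and 1.09 to 2.01 CPM in model tumours and was called lower without sham 1 (-0.92, adjusted p 0.0412).

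Fibrillin 1 and fibrillin 2, the microfibril scaffolds, moved in opposite directions. Fbn1 (chr2:125300594-125507993) was at 2.96, 4.17 and 3.82 CPM in sham colon and at 26.3, 28.1 and 21.4 CPM in model tumours, a log2 fold change of 2.81 (SE 0.22, adjusted p 9.09e-05, edgeR). Fbn2 was at 1.94, 2.56 and 2.19 CPM in sham colon and at 0.186, 0.227 and 0.156 CPM in model tumours, a log2 fold change of -3.48 (SE 0.34, adjusted p 0.000202, edgeR). The fall of Fbn2 rests on few reads, 25, 32 and 31 counts in sham colon and 5, 5 and 3 in model tumours.

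The related glycoproteins Efemp1 (fibulin 3) and Efemp2 (fibulin 4, required for elastic fibres and for lysyl oxidase activity) diverged in the same way. Efemp1 was at 2.02, 3.45 and 3.75 CPM in sham colon and at 0.781, 0.636 and 0.415 CPM in model tumours, a log2 fold change of -2.27 (SE 0.40, adjusted p 0.00241, edgeR). Efemp2 was at 2.49, 4.25 and 3.4 CPM in sham colon and at 53.8, 57.2 and 50.4 CPM in model tumours, a log2 fold change of 4.01 (SE 0.22). Neither gene had overlapping groups, though Efemp2 shares 173 exonic bases with Mus81 on the opposite strand and is uncertain.

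Eln (elastin, the core of the elastic fibre) was at 3.89, 2.56 and 1.91 CPM in sham colon and at 1.6, 0.955 and 1.3 CPM in model tumours. Its log2 fold change of -1.10 (SE 0.41, adjusted p 0.0492, edgeR) lay at the threshold and was lost under 10 alternatives, among them leaving out sham 1 (-0.75, adjusted p 0.0856), sham 2 (adjusted p 0.0635) or any model tumour (0.0661 to 0.16). Emilin1, an elastic fibre glycoprotein, rose by 1.99 (SE 0.31). Mfap5, a microfibril-associated protein, had 1, 0 and 2 counts in sham colon and 222, 131 and 130 in model tumours, a ratio of scaled levels of 93.2 with a counting interval of 31.7 to 453. Mfap2 had 32 counts over all libraries and was not tested.

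The crosslinkers rose except for Loxl2 (4 of 5, or 80%, against 36.8% of all genes). Loxl3 (lysyl oxidase-like 3) was at 1.32, 3.12 and 1.77 CPM in sham colon and at 129, 121 and 107 CPM in model tumours, a log2 fold change of 5.87 (SE 0.33, adjusted p 3.21e-05, edgeR). Loxl1, which acts on elastin, was at 0.467, 0.561 and 1.42 CPM in sham colon and at 3.31, 3.41 and 3.89 CPM in model tumours, a log2 fold change of 2.12 (SE 0.45). Both had separate groups. Lox rose by 5.19 (SE 0.54) and Loxl4 by 7.56 (SE 0.58), the latter from 1, 4 and 9 counts in sham colon, while Loxl2 had a log2 fold change of 0.51 (SE 0.25, adjusted p 0.112, edgeR) with overlapping groups. Loxl3 shares 535 exonic bases with Htra2 on the opposite strand and is uncertain. The genes of collagen processing rose too: Pcolce, the enhancer of procollagen C-proteinase, was at 1.87, 6.81 and 7.01 CPM in sham colon and at 322, 353 and 309 CPM in model tumours, a log2 fold change of 6.00 (SE 0.51, adjusted p 0.000115, edgeR). Aebp1, a collagen-binding protein, rose by 4.25 (SE 0.48).

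Several cell type markers were also called in this comparison, where 36.8% of all genes were called higher and 32.9% lower. Of 7 fibroblast markers 6 rose, and their sum was 105 to 118 CPM in sham colon and 709 to 967 CPM in model tumours. All 5 macrophage markers rose, from a sum of 39.5 to 61.5 CPM to 459 to 656 CPM, and 3 of 4 endothelial markers rose, from 30.9 to 37.1 CPM to 114 to 127 CPM. All 6 smooth muscle markers fell, from sums of 91.9 to 1308 CPM to 7.93 to 15.6 CPM. None of these markers was at 0 in every library of a group, and their part in the matrix values was not tested.

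A pair of genes made up most of the RNA of the set in tumours. Together the 39 genes took 0.0261% to 0.0335% of all counts in sham colon, 1.51%, 1.23% and 1.14% in model tumours 1 to 3, and 0.893%, 1.2% and 1.09% in AC tumours 1 to 3. Fn1 and Spp1 supplied 70% to 75.1% of the counts of the 39 genes in model tumours and 68.8% to 74.8% in AC tumours, but only 5.2% to 14.9% in sham colon. Without that pair, the remaining genes took 0.0247% to 0.0289% of counts in sham colon, 0.343% to 0.376% in model tumours and 0.279% to 0.315% in AC tumours. The AC tumours lay below the model tumours in this remainder, with no overlap and no test.

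**Figure D3:**
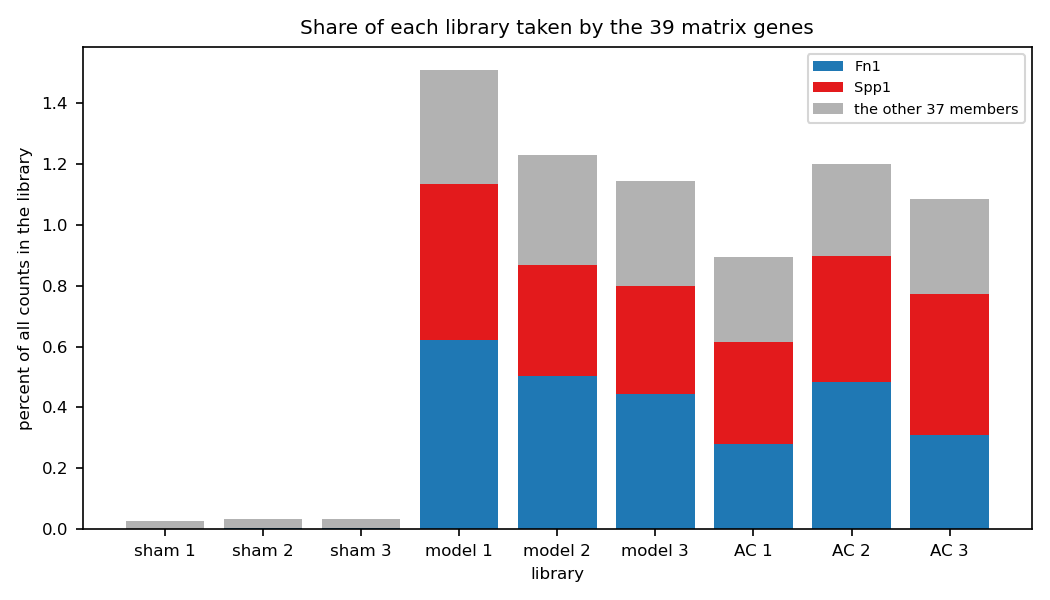
Percent of all counts in each library that fell on the 39 matrix genes, split into Fn1, Spp1 and the other 37. Sham libraries stay at or below 0.0335%, and Fn1 and Spp1 make up most of the bar in every tumour.

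Per transcript length, on the deposited FPKM scale, the order of levels changed between tissues. In sham colon the highest was Sparcl1 at 19.1 ± 10.3 FPKM (SD, n = 3), followed by Sparc at 7.74 ± 1.81 and Dcn at 6.28 ± 4.09, and the ranges of neighbours in the order overlapped at each of the first 11 ranks. In model tumours Spp1 led at 2492 ± 536 FPKM, above Fn1 at 447 ± 77 and Sparc at 111 ± 12.2 FPKM, each apart from the next below it in this order except Sparc, which overlapped Pcolce at 98.4 ± 5.26 FPKM. In AC tumours Spp1 led again at 2448 ± 388 FPKM, followed by Fn1 at 306 ± 94.8 and Pcolce at 104 ± 24 FPKM. Spp1 alone held 66.7% to 76.6% of the summed FPKM of the 39 genes in each tumour. The number of genes with a mean of at least 1 FPKM was 14 in sham colon and 31 in each tumour group, and 1 gene in sham colon against 17 in each tumour group reached 10 FPKM.

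Between AC and model tumours, no matrix gene passed the test. Of the 39 genes 35 were tested (Vtn, Fbn2, Mfap2 and Fmod were not), and 0 were called by edgeR, as were 0% of the 17137 genes tested; the smallest adjusted p of any gene was 0.103. At an unadjusted p under 0.05 there were 7 of the 35 genes (20%) and 2253 genes in all (13.1%). DESeq2 called 305 genes, 82 higher and 223 lower in AC tumours, among them 4 of the matrix genes, Fbn1, Fbln5, Nid1 and Hspg2, all lower. The median log2 fold change of the 35 was -0.18, beside 0.01 over all genes, and 26 of the 35 (74.3%) lay below 0, against 48.6% of all genes tested. AC and model tumours lay in separate ranges for 7 of the 35 (20%), a share near the 19% of all genes.

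Those 7 genes were Nid1, Fbn1, Fbln5, Hspg2 and Bgn, lower in every AC tumour, and Sparcl1 and Efemp1, higher in every AC tumour. Fbn1 had the smallest p of the 35: it was at 12.4, 15.2 and 14.7 CPM in AC tumours 1 to 3 beside 21.4 to 28.1 CPM in model tumours, a log2 fold change of -0.84 (SE 0.15, adjusted p 0.145, edgeR; 0.000454, DESeq2). Fbln5 was at 13.8, 13.2 and 12.4 CPM in AC tumours beside 19.3 to 20.4 CPM in model tumours, with a difference of -0.60 (SE 0.12, adjusted p 0.186, edgeR; 0.00769, DESeq2). Its values were tight in both tumour groups, at 19.9 ± 0.576 and 13.1 ± 0.704 CPM (SD, n = 3).

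Both basement membrane genes among them were also lower. Nid1 was at 40.2, 70.6 and 87.2 CPM in AC tumours beside 127 to 189 CPM in model tumours, a log2 fold change of -1.20 (SE 0.32, adjusted p 0.272, edgeR; 0.00034, DESeq2). Its relative Nid2 was at 10.5, 15.3 and 10.6 CPM in AC tumours and overlapped the model tumours, with a difference of -0.23 (SE 0.21). Hspg2 was at 358, 396 and 358 CPM in AC tumours beside 430.0 to 511 CPM, a log2 fold change of -0.34 (SE 0.093, adjusted p 0.257, edgeR; 0.0479, DESeq2). Bgn was at 34.5, 35.1 and 32.9 CPM in AC tumours and at 36.9 to 49.8 CPM in model tumours, so that the groups lay close together (-0.28, SE 0.13, adjusted p 0.415, edgeR).

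Sparcl1 was at 39.6, 39.3 and 45.8 CPM in AC tumours and at 27.8 to 32.5 CPM in model tumours, a log2 fold change of 0.44 (SE 0.11, adjusted p 0.251, edgeR). Efemp1 was at 0.903, 1.27 and 1.42 CPM in AC tumours and at 0.415 to 0.781 CPM in model tumours, a log2 fold change of 0.94 (SE 0.37, adjusted p 0.344, edgeR). Both were called lower in model tumours against sham colon, a comparison that shares the model libraries. The 6 smooth muscle markers summed to 9.41, 83 and 22.3 CPM in AC tumours 1 to 3 and to 7.93 to 15.6 CPM in model tumours, and their part in these values was not tested.

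**Figure D4:**
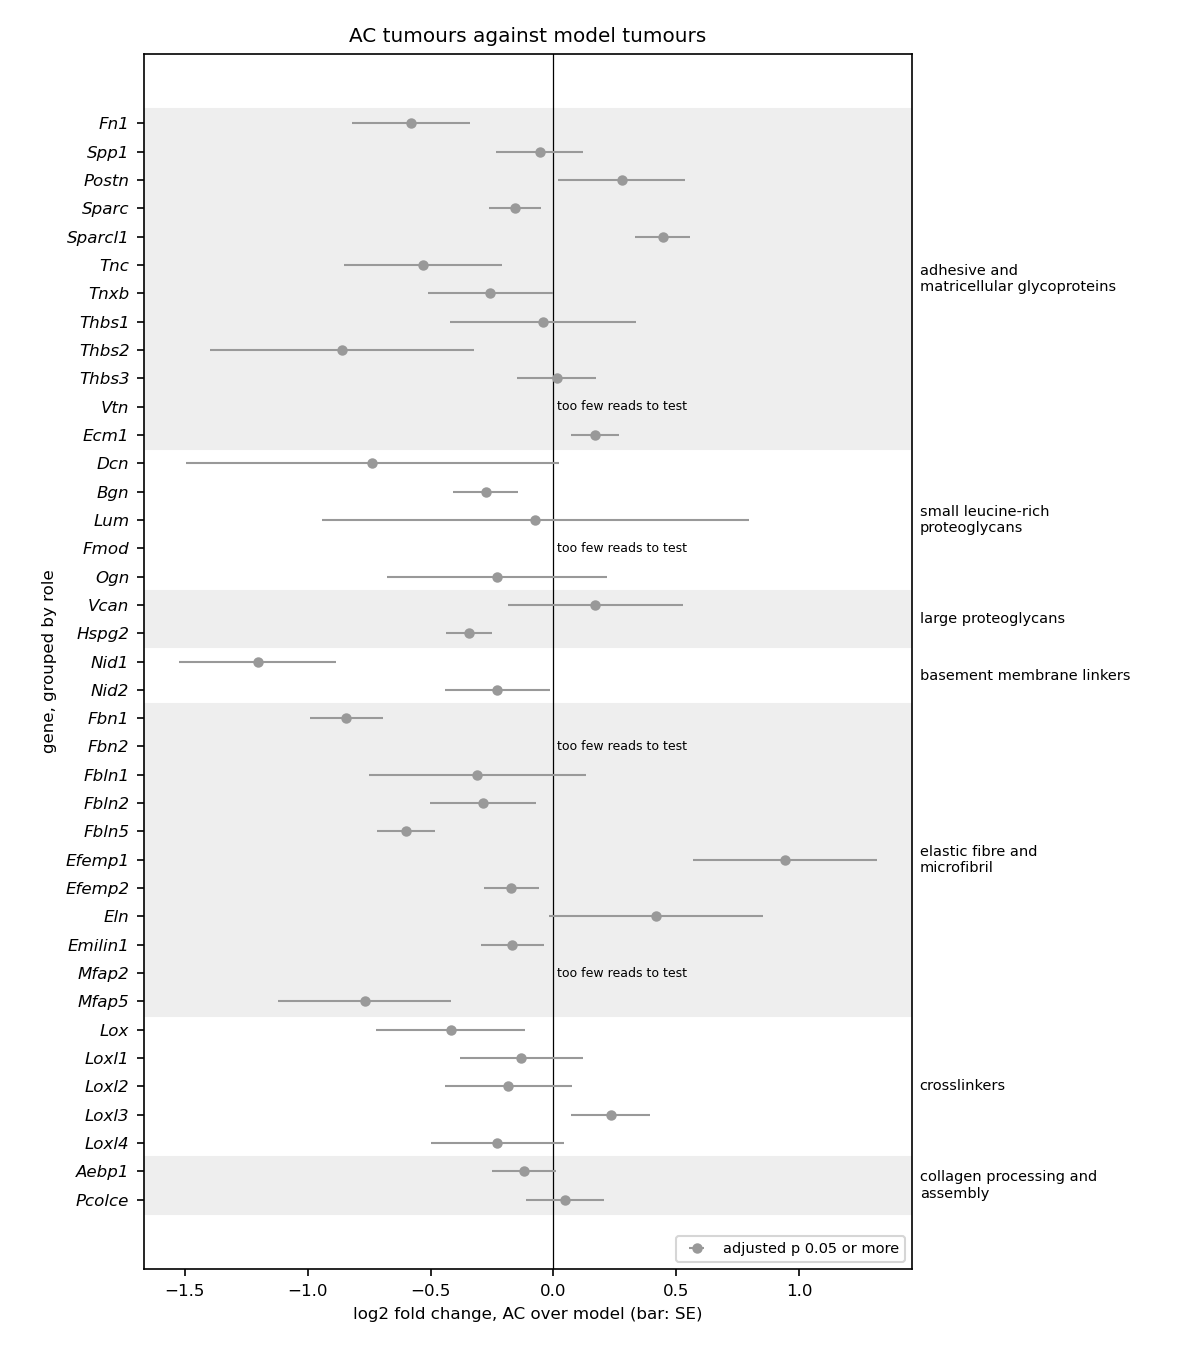
Log2 fold change of each gene in AC tumours over model tumours with its SE (3 libraries against 3), in the order of the roles; no gene had an adjusted p under 0.05. Of the 35 genes drawn 26 lie left of 0, with Nid1 at -1.20 farthest left and Efemp1 at 0.94 farthest right.

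The most abundant genes of the set differed little or varied within the AC group. Spp1 was at 2851, 3585 and 3898 CPM in AC tumours, overlapping the model tumours (-0.056, SE 0.18), and Fn1 was at 2372, 4203 and 2610.3 CPM, with AC 2 inside the range of the model tumours and the other 2 below it (-0.58, SE 0.24, adjusted p 0.376, edgeR). Pcolce was at 407, 360.5 and 251 CPM (0.046, SE 0.16) and Loxl3 at 139, 110.4 and 169.7 CPM (0.23, SE 0.16), both overlapping the model tumours. Sparc, Thbs1, Thbs3, Fbln2, Efemp2 and Postn also overlapped, with log2 fold changes from -0.29 for Fbln2 to 0.28 for Postn. The remaining genes overlapped too, and ranged from -0.77 for Mfap5 to 0.42 for Eln apart from Thbs2 at -0.86.

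The AC tumours varied among themselves for several genes of the set. Spread was counted among genes with at least 100 counts over a group's libraries. The highest AC library exceeded the lowest by more than 2-fold for 8 of 32 matrix genes (25%), against 9.74% of all genes. In model tumours the share was 3 of 33 (9.09%), against 6.65%. In sham colon it was 13 of 23 (56.5%), against 26.9%, so a wide spread was not particular to AC tumours. Thbs2 was at 141, 195 and 498 CPM in AC tumours beside 435 to 585 CPM in model tumours, and Dcn was at 28.7, 78.2 and 202 CPM beside 154 to 206 CPM. For both genes AC 1 and AC 2 lay below every model tumour and AC 3 lay inside the model range. Thbs2 had a difference of -0.86 (SE 0.54, adjusted p 0.545, edgeR) with all libraries and of -1.61 (adjusted p 0.0112) without AC 3, and Dcn had -0.74 (SE 0.76) and -1.71 (adjusted p 0.18).

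Altogether 8 of 35 genes with at least 100 counts over the 6 tumours had AC 1 and AC 2 below all model tumours (Thbs2, Dcn, Bgn, Hspg2, Fbn1, Fbln5, Nid1 and Mfap5), a share of 22.9% beside 20.3% of all genes with as many counts. In 3 of the 8 (Thbs2, Dcn and Mfap5) AC 3 reached the model range. Without AC 3, edgeR called Thbs2, Fbn1 and Fbln5 lower in AC tumours, with 150 genes higher and 419 lower over all genes; without both AC 3 and model 1, the 2 tumours with the highest epithelial marker sums, it called Thbs2 alone of the set (-1.49, adjusted p 0.0183), with 14 higher and 80 lower over all genes. The 7 fibroblast markers summed to 429, 459 and 689 CPM in AC tumours 1 to 3 and to 709 to 967 CPM in model tumours; 6 of the 7 had a negative log2 fold change and 0 were called. The 5 macrophage markers summed to 892, 739.6 and 572 CPM in AC tumours 1 to 3, against 459 to 656 CPM in model tumours, and 0 were called. The part of either cell type in the matrix values was not tested.

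AC tumours against sham colon gave values close in size to those of the model tumours, with which they share the sham libraries. Of the 36 genes tested, 24 rose, 3 fell (Postn, Fbn2 and Efemp1) and 9 were not called, on a background of 68.2% of 17832 genes called, 35.5% higher and 32.7% lower. The median log2 fold change of the 36 was 3.07, beside 0.10 over all genes, and 28 (77.8%) had separate groups, against 75.7% of all genes. Without scaling the all-gene median moved by 0.65 and 68.2% of calls were higher in place of 52.1%. Spp1 rose by 10.74 (SE 0.29), Loxl4 by 7.32 (SE 0.48), Fbln2 by 6.83 (SE 0.29), Pcolce by 6.03 (SE 0.54) and Fn1 by 6.03 (SE 0.64). Of the fibroblast markers 5 of 7 rose here, and all 5 macrophage markers rose, and their part was not tested.

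None of the small leucine-rich proteoglycans was called in AC tumours against sham colon (0 of 4 tested, against 68.2% of all genes). Bgn still lay higher in every AC tumour than in every sham library (0.85, SE 0.43, adjusted p 0.124, edgeR). Dcn had a log2 fold change of 1.11 (SE 0.77, adjusted p 0.239, edgeR), with AC 1 at 28.7 CPM under every sham library and AC 3 at 202 CPM above them. Sparcl1 (-0.87, adjusted p 0.14, edgeR) and Eln (-0.69, adjusted p 0.284, edgeR) were also not called. Postn was at 4.7, 7.91 and 7.97 CPM in AC tumours and fell by 2.23 on the log2 scale (SE 0.26, adjusted p 0.000502, edgeR). Fbn2 had 0, 1 and 6 counts in AC tumours beside 25 to 32 in sham colon (-4.10, SE 0.83), and Efemp1 fell by 1.34 (SE 0.37), a call lost without sham 2, sham 3, AC 1 or AC 2 (adjusted p 0.0547 to 0.0733) and without scaling factors (-0.69, adjusted p 0.12). Without sham 1, 25 genes were called higher and 5 lower, with Sparcl1 (-1.37, adjusted p 4.34e-05) and Fbln1 (-1.34, adjusted p 0.0412) added to the falls and Bgn (1.44) to the rises.

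Ratios within a library compare related genes without a scaling between libraries. On the scale log2 of (FPKM + 0.1), the ratio of Fbn2 to Fbn1 was -0.25 to -0.38 in sham colon, -4.45 to -4.20 in model tumours and -3.86 to -3.50 in AC tumours. That of Efemp1 to Efemp2 was 0.07 to 0.48 in sham colon and lay between -6.05 and -4.32 in all 6 tumours. In both pairs the levels were near each other in colon and far apart in tumours. The size depends on the pseudocount: with 1 FPKM in place of 0.1 the means were -1.73 and -1.22 for Fbn2 to Fbn1 and -4.18 and -3.71 for Efemp1 to Efemp2 in model and AC tumours. Tnc stood above Tnxb in sham colon (a mean of 2.33 ± 0.25, SD, n = 3) and below it in model (-0.49 ± 0.073) and AC tumours (-0.80 ± 0.86).

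Sparc to Sparcl1 was 0.42 in sham 1, -1.86 and -1.90 in sham 2 and 3, 3.16 to 3.28 in model tumours and 2.37 to 2.82 in AC tumours, so that the AC values lay between those of sham colon and model tumours. Loxl3 to Loxl1 rose from 0.64 ± 0.76 in sham colon to 4.48 ± 0.25 in model and 4.84 ± 0.51 in AC tumours, without overlap between sham colon and tumours. Nid1 to Nid2 overlapped between sham colon (3.02 ± 0.66) and model tumours (2.96 ± 0.35) and averaged 1.93 ± 0.57 in AC tumours. The sham values of this ratio hang on the pseudocount, as Nid2 was at 0.0225 to 0.168 FPKM in sham colon. With 1 FPKM the means were 1.12 in sham colon, 2.65 in model tumours and 1.65 in AC tumours, so the direction between colon and tumour is not settled. Thbs1 to Thbs2 was 0.57 to 0.73 in sham colon and -2.31 to -1.03 in model tumours, and in AC tumours it was -0.15, 0.085 and -2.28. Bgn to Dcn was -1.42 to -1.36 in the 3 sham libraries, including sham 1, whereas in AC tumours it spread over 0.20, -1.20 and -2.67. For Thbs1 to Thbs2, AC 3 alone lay within the model range. The ratios were described, not tested.

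**Figure D5:**
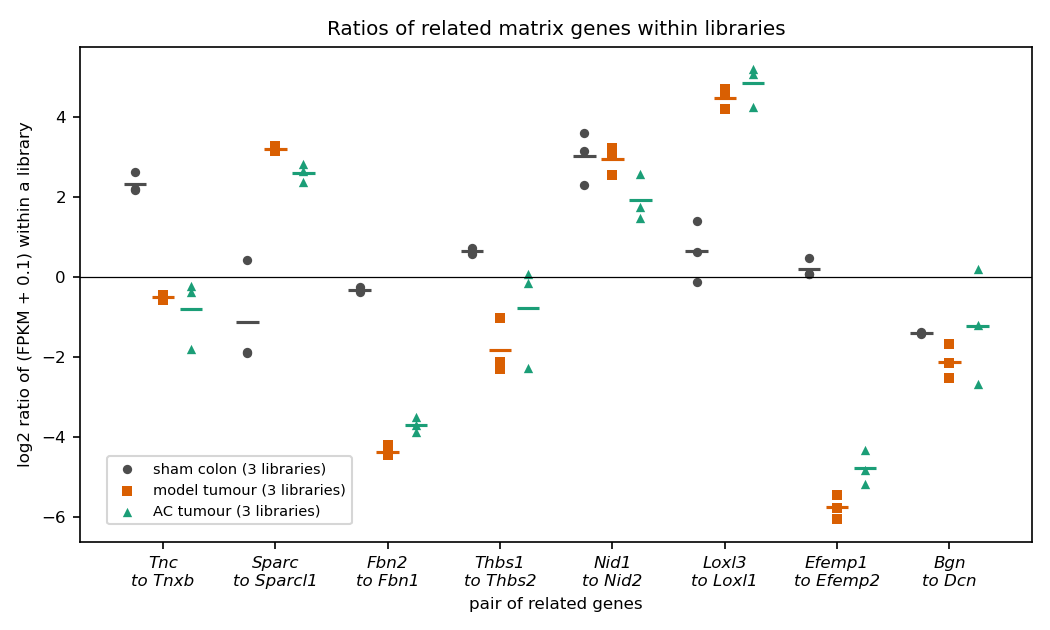
Log2 ratio of (FPKM + 0.1) between related matrix genes within each library, with 3 points and the mean (bar) per group. Fbn2 to Fbn1 and Efemp1 to Efemp2 fall from near 0 in sham colon to below -3 in every tumour on this scale (Fbn2 to Fbn1 to means of -1.73 and -1.22 with a pseudocount of 1 FPKM), and Bgn to Dcn spreads most within AC tumours, from 0.20 to -2.67.

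Other matrix genes were taken from 4 lists that hold 102 genes. In model tumours against sham colon 85 were tested, and 44 rose, 15 fell and 26 were not called, so that 69.4% were called, against 69.7% of all genes. Their median log2 fold change was 1.16. Of the enzymes that modify collagen and matrix 15 of 18 tested rose (83.3%, against 36.8% of all genes) and 1 fell, and among them Fkbp10 (a collagen chaperone) was at 2.12 to 2.48 CPM in sham colon and 64.9 to 67.6 CPM in model tumours (4.89, SE 0.16). Serpinh1, the collagen chaperone HSP47, was at 13.1 to 17.3 CPM and 306 to 389 CPM (4.50, SE 0.17). Of the other proteoglycans 9 of 20 tested were called higher (45%) and 7 lower (35%, against 32.9% of all genes): the glypican Gpc1 rose from 3.11 to 4.46 CPM to 135 to 162 CPM (5.33, SE 0.20), while Gpc4 fell from 41.9 to 50.8 CPM to 0.727 to 2.08 CPM (-5.15, SE 0.46) and the syndecan Sdc1, abundant on epithelia, fell from 154 to 251 CPM to 40.6 to 53.7 CPM (-2.14, SE 0.22).

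Of the other matrix glycoproteins 14 of 31 tested rose (45.2%) and 5 fell, and of the receptors for the 39 proteins 6 of 16 rose (37.5%, against 36.8% of all genes) and 2 fell. The shares called in either direction were 61.3% and 50%, both under the 69.7% of all genes. The integrin subunit Itgb6, an epithelial receptor for fibronectin and tenascin, was at 145 to 153 CPM in sham colon and 0.363 to 2.64 CPM in model tumours (-6.91, SE 0.80). In AC tumours against sham colon 41 of 83 tested rose and 14 fell, a share of 66.3% called beside 68.2% of all genes. Between AC and model tumours 79 were tested and 0 were called (median -0.13). The smallest p there belonged to Tgfbi, a TGF-beta-induced integrin ligand, at 63.9, 54 and 51.1 CPM in AC tumours beside 84.2 to 104 CPM in model tumours (-0.70, SE 0.12, adjusted p 0.137, edgeR).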

How the data were processed

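The members and gene lists were chosen with earlier results of these data known. Trizol extraction and the VAHTS Universal V6 kit were used, per the labels' protocols. The authors deposited raw counts (featureCounts 1.5.0-p3, mm9, per the submitters' processing notes) and FPKM values, these counts divided by gene length and library total. Gene lengths implied by the 2 tables matched GENCODE M21 (GRCm38) within 1% for 96.8% of 22279 genes with at least 20 counts, so symbols and gene coordinates are those of M21. Aligner and strand setting: not given in the sources used here.

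For each comparison the 6 libraries concerned were fitted alone in edgeR 4.0.16 under R 4.3.3 (TMM, filterByExpr, a robust quasi-likelihood fit, Benjamini-Hochberg over all genes tested, threshold 0.05), with DESeq2 1.42.0 as an alternative. filterByExpr keeps genes expressed in as few as 3 libraries, so a gene can pass through its high group alone. CPM in the text were scaled by TMM over all 9 libraries. At these depths a floor of 3 counts is 0.112 to 0.24 CPM; the floor and the 95% exact interval of a ratio of counts cover counting error only. Other alternatives changed scaling, filters, the libraries in the fit and the dispersion estimate. The fits were tested on simulated data with few changed genes. In the comparisons with sham colon most genes were called, so that test does not cover the scaling there.

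Genes with values in every library were the 3 with the smallest p between AC and model tumours, the highest FPKM of each role, those falling in tumours, those whose tumour groups did not overlap, and the pairs set as ratios. Other matrix genes were named as the 3 with the smallest adjusted p in each direction against sham colon (5 CPM or more in the higher group's mean) and the smallest p between tumours. Lists have no test of their own. Replicate numbers showed no clear pairing of the samples, and the main fits used none. Protein sequences were not used here.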

Additional observations from a re-analysis of the deposited data

How the results depend on the processing

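Of the genes called against sham colon, 28 of 30 in model tumours and 26 of 27 in AC tumours kept call and direction under every alternative run; the exceptions were Sparcl1 and Eln, and Efemp1. Of the 6 and 9 not called, 0 and 3 kept direction without a call under all of them, and between tumours 18 of 35 did. In both comparisons with sham colon Tnc and Lum never gained a call but changed direction under some alternatives. In model tumours the genes called lower numbered 3 in place of 5 without scaling, without a filter and with a replicate block, and 3 to 5 with a replicate left out; in AC tumours they numbered 2 to 5, with 5 without sham 1. With the block 27 genes were called higher in model tumours. The replicate numbers showed no clear pairing: correlations of same-numbered libraries ran from -0.53 to 0.44, and not every library correlated best with its own number. With so few libraries per group this check cannot exclude a pairing. Between AC and model tumours genes called lower numbered 4 (DESeq2), 1 (no filter) and 1 (without AC 3 and model 1), and 0 to 3 with a replicate left out. Other matrix genes called lower there numbered 3 (DESeq2), 1 (no filter) and 0 to 4 with a replicate left out. Over all genes, 82, 23 and 14 were called higher and 223, 82 and 80 lower under DESeq2, no filter and without both tumours, with 0 to 150 higher and 0 to 419 lower with a replicate left out. The cause was not tested. Reversed were Sdc4 (0.43 and 0.41 against sham colon in model and AC tumours) and Itgav (0.40 and 0.18) without scaling factors, and Itga4 in AC tumours, whose values with a replicate left out ran from -0.59 to 0.89, the latter without sham 1. With a pseudocount of 1 FPKM, low genes pull ratios towards 0: Tnc to Tnxb was 1.26 in sham and -0.42 in model, Sparc to Sparcl1 3.11 in model, Fbn2 to Fbn1 -0.078, -1.73 and -1.22 in sham, model and AC, Thbs1 to Thbs2 0.35 and Nid1 to Nid2 1.12 in sham, Loxl3 to Loxl1 3.78 and 4.08 and Efemp1 to Efemp2 -4.18 and -3.71 in model and AC, and Bgn to Dcn -1.08 in sham. Depth limits Fbn2, Efemp1, Eln, Mfap5 and the sham values of Lox, Loxl1, Loxl4 and Nid2, which rest on few reads.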
